A study of Mus musculus with 8 samples.

Results

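Interferon-stimulated genes are the genes that cells switch on when interferons bind their receptors. The set described here holds 42 of them, chosen by symbol from a list of members. The deposited liver RNA sequencing tables named 16796 genes in all. All 42 passed the filter on low counts and belong to the 13244 genes tested. The type I arm has 30 genes: 4 nucleic acid sensors, 4 signal factors, 14 antiviral effectors and 8 modifiers and other responders. The other 12 are 9 GTPases induced by interferon gamma and 3 antigen-processing genes. The livers came from 4 mice with a liver-specific knockout of E4bp4 (E4bp4-LKO, mice 143, 144, 145 and 179) and from 4 wild-type mice (WT, mice 164, 165, 166 and 167). All 8 mice began a diet that induces non-alcoholic steatohepatitis (NASH) at 2 months of age and stayed on it for 20 weeks, and no liver of mice on another diet was part of the comparison. The sources used here do not give the promoter that drives the deletion, nor the strain, the sex or the littermate status. E4BP4 is the protein of Nfil3, a basic leucine zipper repressor that binds D-box DNA.

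Type I interferons signal through a receptor of 2 chains, Ifnar1 and Ifnar2, and assemble a complex with STAT2 and IRF9 that binds the interferon-stimulated response element (ISRE). Interferon gamma signals through Ifngr1 and Ifngr2 to factors that bind the gamma-activated site, and IRF1 then carries the response on to ISRE-like sites, so that many genes answer to both. In the liver, hepatocytes and Kupffer cells both express these genes, and the products act inside the cell on viral RNA, on vacuoles that hold microbes, or on the peptides shown to T cells.

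The ISRE motif was found in the promoter windows of many members, and the sequences below show it in the 2 arms. They are RefSeq sequences (assembly GRCm38.p6, 250 bases before to 50 bases after the annotated start), printed on the strand of the gene, with 10 bases on either side of each match. Capitals mark the match to the ISRE core, which was searched as GAAA, any 2 bases and GAAA again, or its reverse complement. The type I examples are Isg15 (chr4:156200865-156200906, minus strand, first match 78 bases before the start), Oas1a (chr5:120907520-120907555, minus strand), Oas1g (chr5:120887606-120887641, minus strand), Bst2 (chr8:71537577-71537612, minus strand) and Ifit1 (chr19:34640775-34640804, plus strand). The GTPase examples are Gbp2 (chr3:142620594-142620623, plus strand), Irgm1 (chr11:48871425-48871460, minus strand), Igtp (chr11:58199512-58199541, plus strand) and Irgm2 (chr11:58214903-58214932, plus strand).
Isg15: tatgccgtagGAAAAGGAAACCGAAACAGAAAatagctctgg
Oas1a: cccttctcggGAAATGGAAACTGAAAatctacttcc
Oas1g: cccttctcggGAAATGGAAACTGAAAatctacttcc
Bst2: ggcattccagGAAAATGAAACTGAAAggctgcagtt
Ifit1: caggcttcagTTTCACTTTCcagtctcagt
Gbp2: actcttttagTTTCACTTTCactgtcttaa
Irgm1: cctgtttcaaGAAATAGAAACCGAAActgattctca
Igtp: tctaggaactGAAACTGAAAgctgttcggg
Irgm2: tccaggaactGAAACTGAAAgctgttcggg
Isg15 holds 3 overlapping matches in 1 run, and Oas1a, Oas1g, Bst2 and Irgm1 hold 2 each. Oas1a and Oas1g, which are neighbouring paralogs, carry the same letters throughout the printed stretch.

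The ISRE core was present in 18 of the 32 members that the RefSeq promoter table holds (56.2%), against 3.99% of the 27025 genes in that table and 3.96% of the 10588 tested genes in it. By role, 2 of 2 sensors (Ddx58, Ifih1), 1 of 4 signal factors (Stat2), 8 of 12 antiviral effectors, 1 of 4 modifiers (Isg15), 6 of 7 interferon-gamma GTPases and 0 of 3 antigen-processing genes had a match. The gamma-activated site TTCNNNGAA was present in 10 of 32 members (31.2%), against 9.55% of all genes in the table. It stood in 4 of 10 members of the interferon-gamma arm and in 6 of 22 of the type I arm. A gamma-activated site and an ISRE core stood in the same window in Igtp, Irgm2, Gbp7, Oas1a, Ifitm3 and Bst2, where the gamma-activated site of Bst2 overlapped the first ISRE match. The D-box core TTANGTAA had a match in 0 of 32 members, against 2.72% of all genes in the table and 1.98% of the tested genes in it. With shares this low, 0 matches in 32 members cannot set them apart from other genes. Both strands were searched for each motif. A match is a run of letters and not a measured binding site, and the absence of a match says only that these letters are not in this window.

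**Figure D1:**
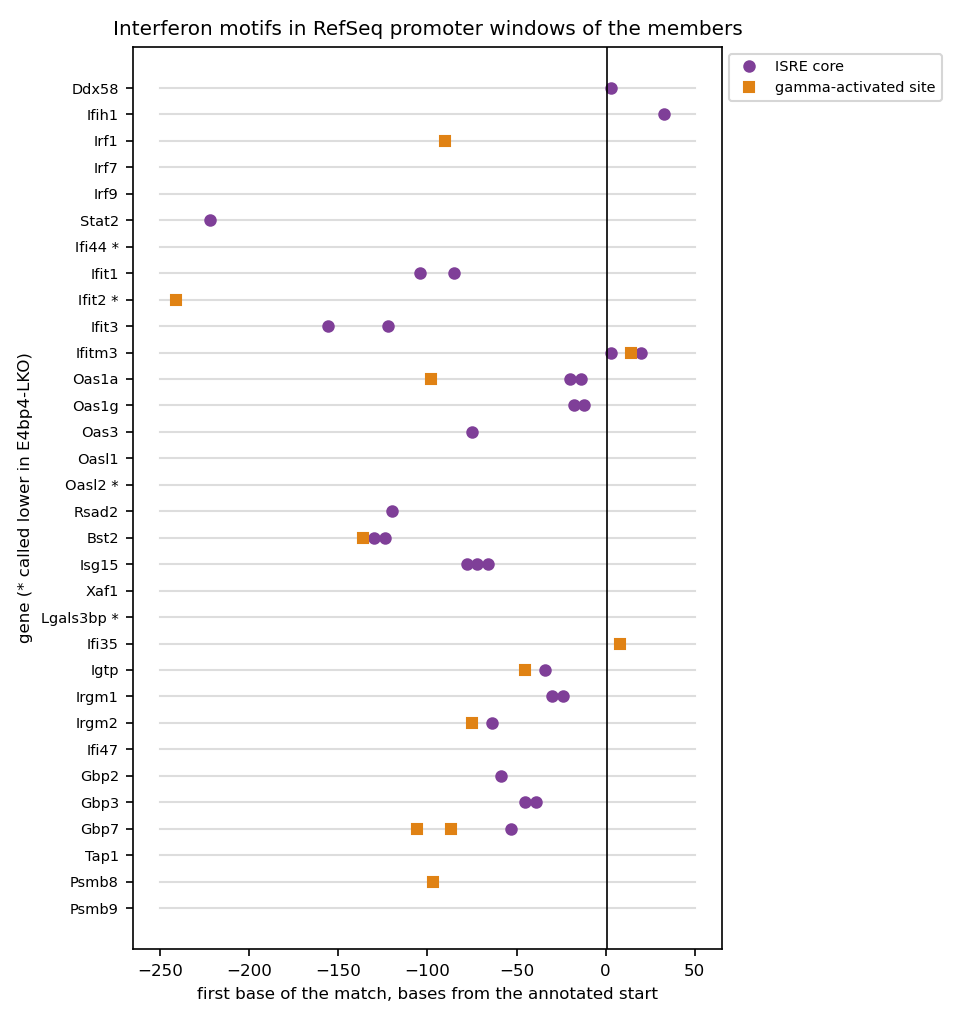
Each row is 1 of the 32 members with a RefSeq promoter window (grey line, 250 bases before to 50 after the annotated start, drawn as a black line), and each point is the first base of a match to the ISRE core (purple circles) or the gamma-activated site (orange squares), in bases from the start. Asterisks mark the 4 genes called lower in E4bp4-LKO that have a window, and Zbp1 and Oas2, also called lower, have none. The rows of these 4 genes hold no ISRE core at the spacing searched, while 18 other rows hold at least 1. Ifi44 and Lgals3bp hold the GAAA unit of the core at other spacings.

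Each library held between 23805540 and 32290265 counts. The detection floor, taken as 3 counts, was therefore 0.0929 to 0.126 CPM (counts scaled to a common library size), and floors cover counting error only. Nfil3 (Entrez 18030) was measured first as a check of the labels: it was at 3.33, 6.22, 6.14 and 3.35 CPM in E4bp4-LKO livers, against 11.4, 8.79, 12.1 and 16.5 CPM in WT livers. The log2 fold change was -1.35 (SE 0.255, edgeR quasi-likelihood test, adjusted p = 0.0121; exact two-sided permutation test over livers, p = 0.0286, the smallest this design allows). On the first principal component (52.7% of the variance), WT 164 and WT 165 lay at -49.3 and -30.1, apart from the other WT livers at -11.1 and -10.4, and the E4bp4-LKO livers lay between 19.2 and 31.2. Counts of calls are therefore also given without these 2 WT livers. Across all genes tested, 858 were lower in E4bp4-LKO (6.48%) and 578 were higher (4.36%), 10.8% in all. With libraries scaled by their totals in place of trimmed-mean (TMM) factors the split was 1660 lower (12.5%) and 291 higher (2.2%). That scaling moved the all-gene median log2 fold change to -0.15, against 0.01 with TMM factors.

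Of the 42 members, 6 were lower in E4bp4-LKO livers (14.3%, against 6.48% of all genes tested), 0 were higher (against 4.36%) and 36 did not pass the threshold of adjusted p under 0.05. The 6 were Oasl2, Zbp1, Oas2, Lgals3bp, Ifi44 and Ifit2, all of the type I arm, with log2 fold changes of -0.72 to -0.37. No member changed by 2-fold or more. The estimate was negative for 32 members and positive for 10, and the median log2 fold change was -0.15, beside a median of 0.01 over all genes tested. Without WT 166 the members' median was -0.0824, and without WT 164 and WT 165 together it was -0.26. At an unadjusted p under 0.05, 10 members were lower and 1 was higher (Irf1), which is 23.8% and 2.38% of the set, against 15.2% and 13.1% of all genes. DESeq2 called 8 members lower and 0 higher, with 9.57% and 7.33% of all genes called in those directions. The count of lower members rested on single livers. Leaving out E4bp4-LKO 144 left 1 member lower (271 of all genes), leaving out E4bp4-LKO 145 left 3 (422 of all genes) and leaving out WT 165 left 3 (372 of all genes). With E4bp4-LKO 179 left out, 4 were lower, 3 of them in the type I arm. With library totals 13 members were lower and 0 higher, and their median of -0.31 lay -0.16 from that of all genes. Without WT 164 and WT 165 together, 4 members were lower (Zbp1, Irf7, Ifit3 and Oasl2) and 0 higher, while 1.53% of all genes were lower and 1.36% higher.

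**Figure D2:**
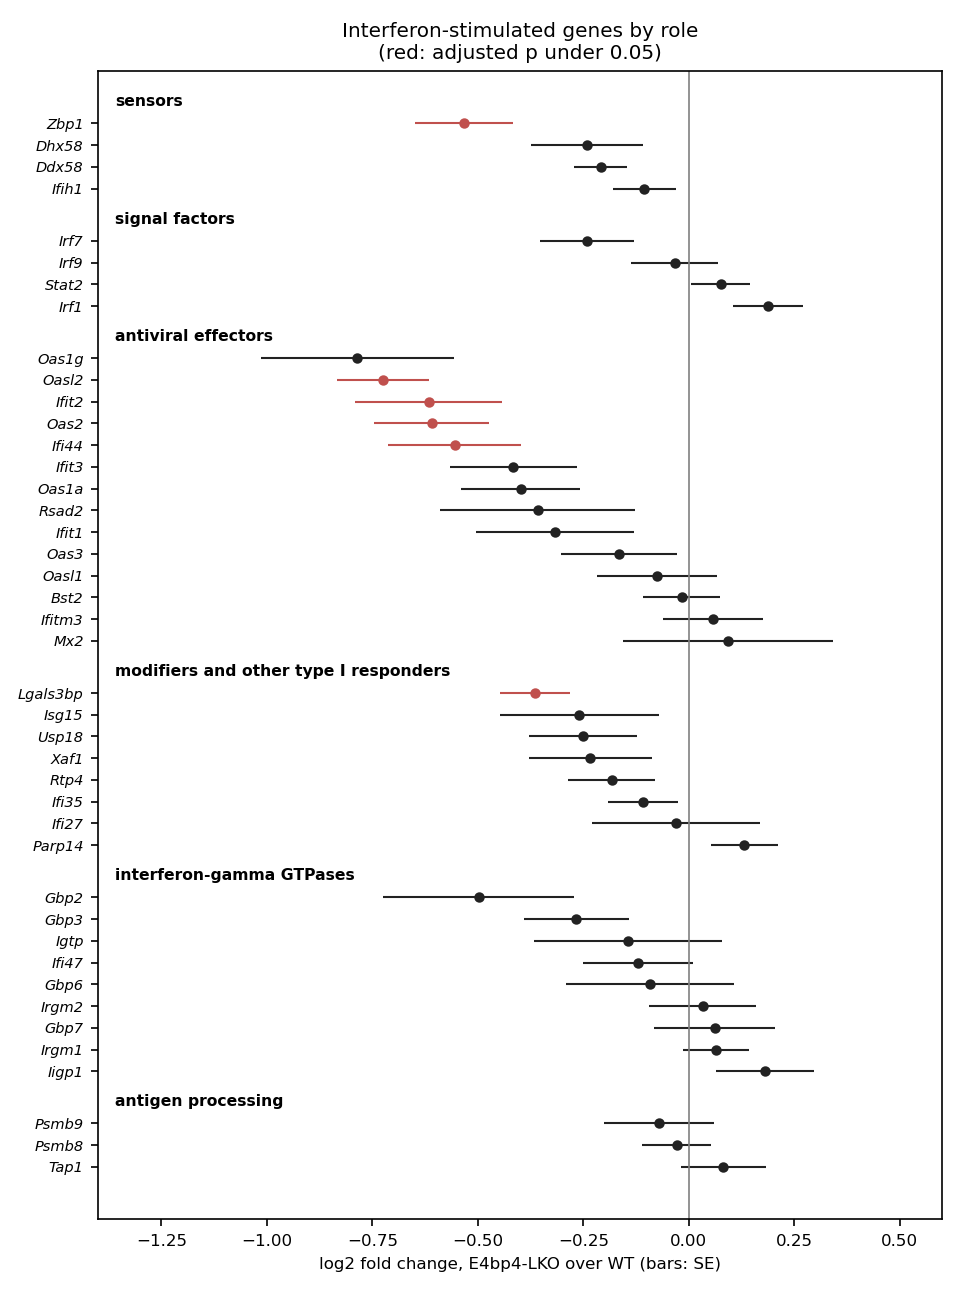
Points give the log2 fold change of each of the 42 members, E4bp4-LKO over WT, with bars of 1 SE from edgeR, grouped by role and ordered within each role; red marks an adjusted p under 0.05. The red points are 4 antiviral effectors, 1 sensor (Zbp1) and 1 modifier (Lgals3bp), and all of them lie between -0.72 and -0.37, whereas the interferon-gamma GTPases lie on both sides of 0.

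The ligands themselves were close to undetected. Of 21 interferon genes looked for, 3 (Ifnk, Ifnz and Ifng) were listed in any library and 0 passed the count filter. Ifnb1, the first type I interferon made by most infected cells, was not listed. Ifng, which encodes interferon gamma, was at 0.0740, 0.0659, 0 and 0.0892 CPM in E4bp4-LKO livers, against 0.0289, 0, 0.140 and 0 CPM in WT livers. All but 1 of these values lie under the floor, so a difference was not detectable at this depth. Of the 8 receptor chains and kinases tested, 1 was lower (12.5%, against 6.48% of all genes) and 0 were higher (against 4.36%). That gene was Il10rb, the chain shared by the interferon lambda and interleukin 10 receptors. It averaged 16.4 ± 1.15 CPM in E4bp4-LKO livers and 24.1 ± 3.84 CPM in WT livers (SD, n = 4 each), a log2 fold change of -0.56 (SE 0.11, edgeR, adjusted p = 0.0144). The call was lost without E4bp4-LKO 144 (edgeR, adjusted p = 0.0531) and when WT 164 and WT 165 were both left out. Ifngr1, the ligand-binding chain for interferon gamma, averaged 22.6 ± 2.95 CPM in E4bp4-LKO livers and 30.7 ± 6.01 CPM in WT livers (SD, n = 4 each), and did not pass (edgeR, adjusted p = 0.0647). Ifnar1 averaged 62.5 ± 4.19 CPM in E4bp4-LKO livers and 54.4 ± 2.87 CPM in WT livers (SD, n = 4 each), and did not pass (edgeR, adjusted p = 0.0939). Its E4bp4-LKO livers all lay above its WT livers, which held for 8.8% of all genes. Those of Il10rb all lay under its WT livers, which held for 9.68% of all genes.

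Among the 4 sensors, 1 was lower (25%, against 6.48% of all genes), and the median log2 fold change of the group was -0.23. Zbp1 (Entrez 58203), which binds Z-form nucleic acid and can start necroptosis, was at 9.25, 8.59, 10.2 and 11.4 CPM in E4bp4-LKO livers, against 13.2, 12.6, 15.8 and 15.4 CPM in WT livers. The groups did not overlap, and the log2 fold change was -0.53 (SE 0.12, edgeR, adjusted p = 0.0185; 0.0618 without E4bp4-LKO 144). Ddx58 (Entrez 230073), the RIG-I helicase that detects RNA with a triphosphate end, was at 40.7, 41.6, 39.98 and 39.6 CPM in E4bp4-LKO livers, against 44.4, 46.6, 50.03 and 46.1 CPM in WT livers. Every E4bp4-LKO liver lay under every WT liver, yet the change was small (log2 fold change -0.21, SE 0.06) and did not pass (edgeR, adjusted p = 0.0562). Dhx58, the LGP2 helicase that tunes the other helicases, and Ifih1, the MDA5 helicase that detects long double-stranded RNA, had log2 fold changes of -0.24 and -0.11 with overlapping groups, and neither passed.

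None of the 4 signal factors passed the threshold (against 10.8% of all genes), and their median log2 fold change was 0.02. Irf7, the factor that amplifies type I interferon transcription, was at 49.4, 49.6, 43.0 and 46.0 CPM in E4bp4-LKO livers, against 44.2, 53.0, 65.2 and 60.2 CPM in WT livers. WT 164 was as low as the E4bp4-LKO livers, and the log2 fold change was -0.24 (SE 0.11, edgeR, adjusted p = 0.181); Irf7 passed as lower without WT 164. Irf1, the factor induced by interferon gamma, was at 28.7, 29.99, 34.9 and 28.5 CPM in E4bp4-LKO livers, against 27.9, 26.1, 28.2 and 25.1 CPM in WT livers. It was the one member whose E4bp4-LKO livers all lay above the WT livers (8.8% of all genes did so), with a log2 fold change of 0.19 that did not pass (SE 0.08, edgeR, adjusted p = 0.165). Stat2 and Irf9, parts of the ISRE-binding complex, had log2 fold changes of 0.08 and -0.03.

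The antiviral effectors held 4 of the 6 called members (28.6% of the 14, against 6.48% of all genes). They had the lowest median of the 6 role groups, -0.38, with 12 of 14 estimates negative. Oasl2 (Entrez 23962), an oligoadenylate synthetase-like protein with ubiquitin-like domains, had the smallest p of the set. It was at 13.2, 9.35, 11.2 and 10.04 CPM in E4bp4-LKO livers, against 19.3, 17.0, 18.1 and 17.9 CPM in WT livers. The highest E4bp4-LKO liver lay well under the lowest WT liver, the level in E4bp4-LKO was 60.5% of that in WT, and the log2 fold change was -0.72 (SE 0.11, edgeR, adjusted p = 0.0044). Oasl2 kept an adjusted p of 0.00205 to 0.0159 in all 8 fits that leave out 1 liver. In the same family, Oas2 (Entrez 246728), a synthetase whose product activates RNase L against viral RNA, was at 5.29, 4.25, 3.78 and 5.44 CPM in E4bp4-LKO livers, against 7.25, 7.38, 6.87 and 7.06 CPM in WT livers. The WT livers lay close together and above all E4bp4-LKO livers (log2 fold change -0.61, SE 0.14, edgeR, adjusted p = 0.0204), and the call was lost without WT 165 or without E4bp4-LKO 144 (largest adjusted p = 0.0679).

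The other synthetases did not pass. Oas1g, a mouse paralog of Oas1a, had the lowest estimate of the set, -0.79 (SE 0.23), and missed the threshold (edgeR, adjusted p = 0.0504). It was at 1.63, 1.28, 1.73 and 1.70 CPM in E4bp4-LKO livers, against 3.47, 1.83, 3.16 and 2.45 CPM in WT livers, with no overlap but with WT 165 close to the E4bp4-LKO livers. Oas1a had a log2 fold change of -0.40 (edgeR, adjusted p = 0.0924), Oas3 of -0.17 and Oasl1, which in mice restrains the translation of Irf7, of -0.08. Whether Oasl2 and Oasl1 differ in their response was not tested. Oas1a, Oas1g and Oas3 had fractional counts in all 8 libraries. These arise where reads are shared out between similar transcripts or genes, so their split is uncertain. Oas2 and Oasl1 had none, and Oasl2 had them in 4 libraries.

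In the Ifit family, whose proteins bind foreign RNA and block its translation, Ifit2 (Entrez 15958) was called lower. It was at 10.6, 6.09, 8.01 and 8.48 CPM in E4bp4-LKO livers, against 13.3, 14.4, 13.6 and 9.51 CPM in WT livers. The groups overlapped, since WT 167 was under E4bp4-LKO 143, and the log2 fold change was -0.62 (SE 0.17, edgeR, adjusted p = 0.0465). Ifit3 and Ifit1 had log2 fold changes of -0.42 (edgeR, adjusted p = 0.101) and -0.32 (edgeR, adjusted p = 0.299), and both carried fractional counts in all libraries, which Ifit2 did not. Ifi44 (Entrez 99899), an antiviral protein that also dampens the interferon response in human cells, was at 6.14, 4.15, 3.86 and 5.53 CPM in E4bp4-LKO livers, against 6.50, 7.56, 7.47 and 7.34 CPM in WT livers. Its groups were separated by a small gap between E4bp4-LKO 143 and WT 164 (log2 fold change -0.56, SE 0.16, edgeR, adjusted p = 0.0464). Of the 8 fits that leave out 1 liver, Ifit2 passed in 2 (without E4bp4-LKO 143 and without WT 167; edgeR, adjusted p up to 0.124 in the others). Ifi44 passed in 1 (without E4bp4-LKO 143; edgeR, adjusted p up to 0.132 in the others).

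Of the remaining effectors, Rsad2 (viperin), which makes a chain-terminating nucleotide, ranged over 8.52 to 15.3 CPM in E4bp4-LKO livers and 11.6 to 19.9 CPM in WT livers, with a log2 fold change of -0.36 (edgeR, adjusted p = 0.349). Bst2 (tetherin), which holds budding virus at the membrane, ranged over 120 to 136 CPM in E4bp4-LKO livers and 115 to 147 CPM in WT livers, with a log2 fold change of -0.02 (SE 0.09). Ifitm3, which blocks viral entry in endosomes, had a log2 fold change of 0.06 (SE 0.12), and Mx2, a dynamin-like GTPase, of 0.09 (SE 0.25). These 4 did not pass.

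**Figure D3:**
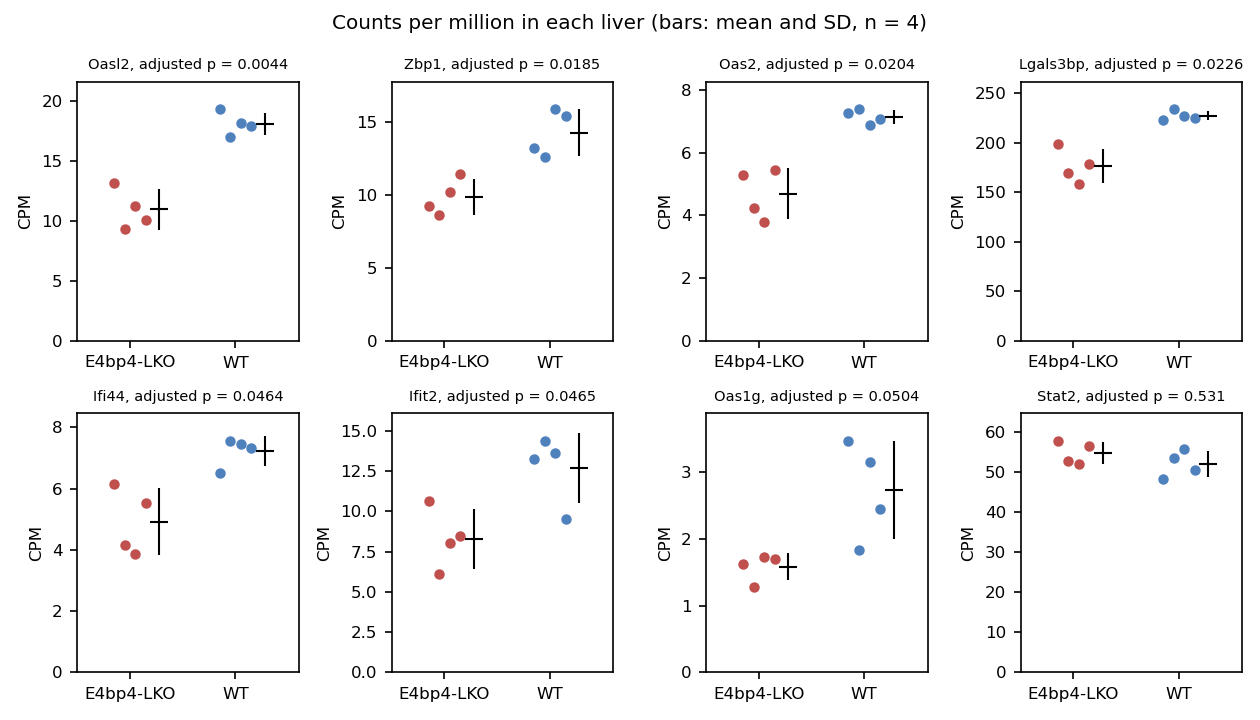
Each panel shows the CPM (TMM-scaled, y axis from 0) of 1 gene in the 4 E4bp4-LKO livers (red, left) and the 4 WT livers (blue, right), in the order of the mouse numbers, with a black cross for the mean and SD. In the panels of Oasl2, Zbp1, Oas2, Lgals3bp and Ifi44 every E4bp4-LKO liver lies under every WT liver, in that of Ifit2 WT 167 lies among the E4bp4-LKO livers, Oas1g missed the threshold, and Stat2 is shown as a member whose groups overlap.

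Of the 8 modifiers and other type I responders, 1 was lower (12.5%, against 6.48% of all genes), and their median log2 fold change was -0.21. Lgals3bp (Entrez 19039), a secreted glycoprotein that binds galectin 3, was at 199, 170, 158 and 179 CPM in E4bp4-LKO livers, against 223, 234, 227 and 225 CPM in WT livers. The groups were well apart and the WT livers nearly equal (log2 fold change -0.37, SE 0.08, edgeR, adjusted p = 0.0226), but the call was lost without WT 165, E4bp4-LKO 144, E4bp4-LKO 145 or E4bp4-LKO 179 (largest adjusted p = 0.0746). Usp18, which removes ISG15 and dampens the type I receptor, was at 12.9, 9.58, 10.8 and 11.1 CPM in E4bp4-LKO livers, against 10.8, 14.8, 14.8 and 12.5 CPM in WT livers. WT 164 lay among the E4bp4-LKO livers, and the log2 fold change of -0.25 did not pass (SE 0.13, edgeR, adjusted p = 0.225). Isg15, the ubiquitin-like modifier itself, ranged over 4.85 to 8.18 CPM in E4bp4-LKO livers and 6.25 to 9.71 CPM in WT livers, with a log2 fold change of -0.26 (SE 0.19). Xaf1, which binds the apoptosis inhibitor XIAP, Rtp4, a chaperone of membrane receptors, Ifi35 and Ifi27 had log2 fold changes of -0.23, -0.18, -0.11 and -0.03. Parp14, an ADP-ribosyltransferase, had 0.13. These 6 did not pass.

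In the interferon-gamma arm 0 of 9 GTPases passed in either direction, against 10.8% of all genes. Of the estimates, 5 were negative and 4 positive, with a median log2 fold change of -0.09. The guanylate-binding proteins (Gbp) and immunity-related GTPases attack vacuoles that hold microbes. Gbp2 was at 14.2, 9.25, 16.3 and 21.1 CPM in E4bp4-LKO livers, against 21.8, 19.9, 26.6 and 17.3 CPM in WT livers. E4bp4-LKO 179 was above 2 of the WT livers, the E4bp4-LKO livers spread widely, and the log2 fold change was -0.50 (SE 0.23, edgeR, adjusted p = 0.184). Gbp3 was at 12.6, 10.7, 11.6 and 14.5 CPM in E4bp4-LKO livers, against 12.5, 14.9, 17.6 and 14.3 CPM in WT livers. Its groups overlapped (log2 fold change -0.27, SE 0.12, edgeR, adjusted p = 0.186). It passed as lower with library totals and in both filtered FPKM fits (smallest adjusted p = 0.0354, limma).

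Gbp6 ranged over 23.4 to 48.0 CPM in E4bp4-LKO livers and 31.6 to 35.6 CPM in WT livers (log2 fold change -0.09, SE 0.20). Without E4bp4-LKO 179 it passed as lower (edgeR, adjusted p = 0.0362). Igtp, known as Irgm3, ranged over 26.0 to 51.8 CPM in E4bp4-LKO livers and 32.3 to 49.6 CPM in WT livers (log2 fold change -0.14, SE 0.22). For both genes the highest of the 8 livers was E4bp4-LKO 179. Ifi47 had a log2 fold change of -0.12, Irgm2 of 0.03, Gbp7 and Irgm1 of 0.06 each, and Iigp1, an abundant effector GTPase, of 0.18 (SE 0.12, edgeR, adjusted p = 0.344). All of these groups overlapped.

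The 3 antigen-processing genes, which act in loading peptides onto major histocompatibility complex (MHC) class I, also overlapped between the groups. Tap1, a chain of the peptide transporter, was at 44.2, 40.2, 53.4 and 43.7 CPM in E4bp4-LKO livers, against 39.3, 39.3, 48.1 and 44.8 CPM in WT livers (log2 fold change 0.08, SE 0.10, edgeR, adjusted p = 0.646). Psmb9, a subunit of the immunoproteasome, was at 23.2, 17.4, 20.9 and 19.5 CPM in E4bp4-LKO livers, against 19.4, 18.7, 27.1 and 19.8 CPM in WT livers (log2 fold change -0.07, SE 0.13, edgeR, adjusted p = 0.774). In both genes the ranges of the groups overlapped. Psmb8, another immunoproteasome subunit, had a log2 fold change of -0.03 (SE 0.08, edgeR, adjusted p = 0.856). Of 19 other genes of the MHC class I pathway, 0 passed (against 10.8% of all genes), and the median log2 fold change was -0.01. At an unadjusted p under 0.05, 2 were lower and 1 was higher, against 15.2% and 13.1% of all genes. DESeq2 called 0. With library totals 3 were lower, against 12.5% of all genes.

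Set side by side, the type I arm had 6 of 30 genes lower (20.0%) and a median log2 fold change of -0.24, with 25 estimates negative. Irf1, which interferon gamma induces, is counted in the type I arm as a signal factor. The interferon-gamma and antigen-processing arm had 0 of 12 lower and a median of -0.05, with 7 estimates negative. The share of all genes called lower by edgeR was 6.48%. At an unadjusted p under 0.05 the counts of lower genes were 10 of 30 and 0 of 12, against 15.2% of all genes. DESeq2 called 8 of 30 and 0 of 12 lower, against 9.57% of all genes. Without WT 166 the medians were -0.13 in the type I arm and 0.0549 in the other, and that of the antiviral effectors was -0.19. The groups did not overlap, with E4bp4-LKO lower, for 7 of 30 type I genes (23.3%) and for 0 of 12 genes of the other arm, against 9.68% of all genes. With library totals 12 of 30 and 1 of 12 were lower, against 12.5% of all genes, and the estimates of Irgm1, Irgm2, Gbp7 and Tap1, positive with TMM factors, were negative. The difference between the arms was not tested. The SE of the log2 fold change ran from 0.06 to 0.25 over the 42 members (median 0.13). The SE was over 0.2 for Mx2, Rsad2 and Oas1g of the type I arm and for Gbp2 and Igtp of the other. In bulk liver, fewer cells of a type and less RNA per cell cannot be told apart.

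Part of the spread lay between livers of the same group. WT 166 was the highest WT liver in 31 of the 42 members, in 20 of 30 of the type I arm and 11 of 12 of the other. E4bp4-LKO 143 was the highest E4bp4-LKO liver in 15 of 30 type I genes, while E4bp4-LKO 179 was the highest in 8 of 12 interferon-gamma and antigen-processing genes and E4bp4-LKO 144 the lowest in 11 of 12. As a mean of log2 CPM relative to the 8-liver mean of each gene, the type I arm lay at -0.00099, -0.17, -0.20 and -0.11 in E4bp4-LKO 143, 144, 145 and 179, against -0.03, 0.08, 0.31 and 0.13 in WT 164, 165, 166 and 167. The other arm lay at -0.09, -0.30, 0.02 and 0.22 in those E4bp4-LKO livers, against -0.03, -0.05, 0.27 and -0.04 in those WT livers. In both arms WT 166 stood above the other WT livers, and E4bp4-LKO 179 was low in the type I arm and high in the other.

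**Figure D4:**
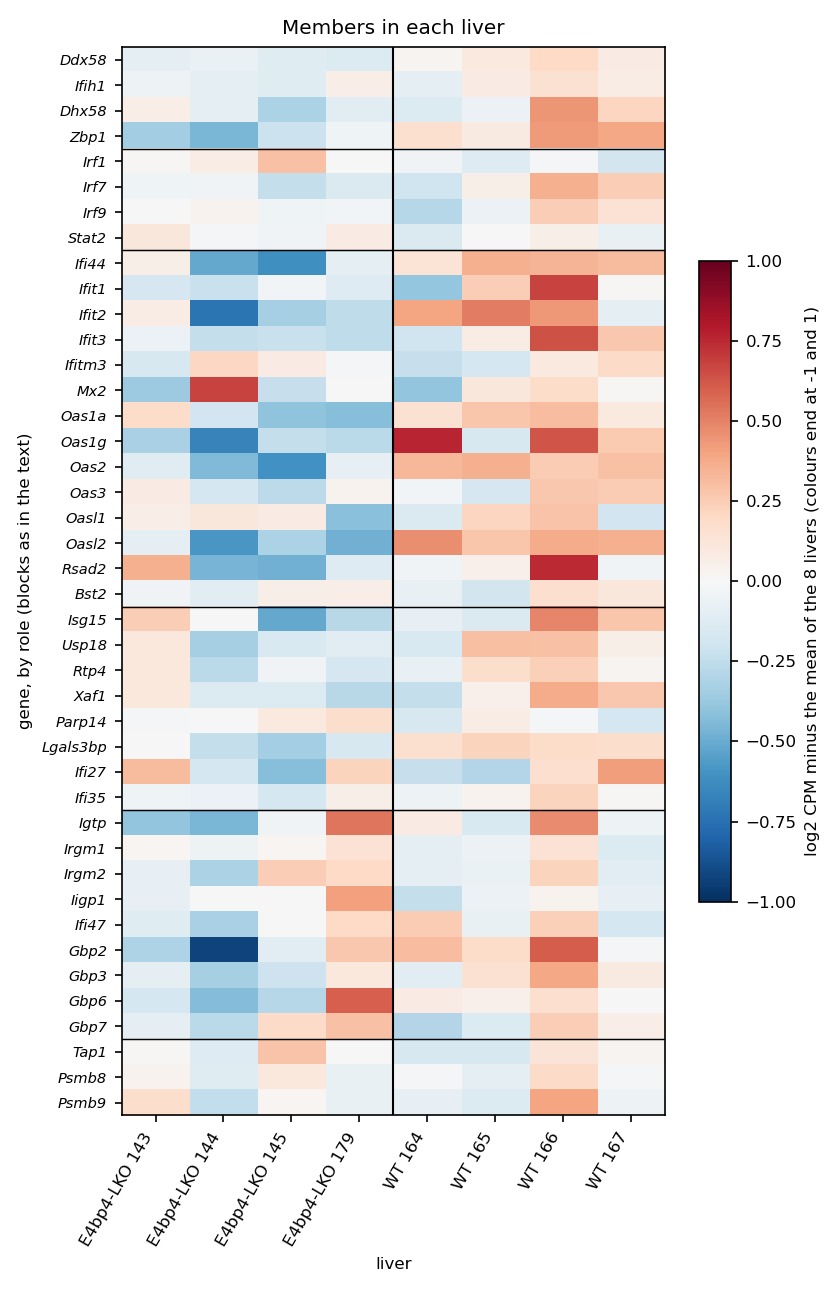
Rows are the 42 members in blocks by role (sensors, signal factors, antiviral effectors, modifiers, interferon-gamma GTPases, antigen processing), columns are the 4 E4bp4-LKO livers and then the 4 WT livers, and colour is log2 CPM minus the mean of the 8 livers for that gene, ending at -1 and 1. The column of WT 166 is red in most rows, and that of E4bp4-LKO 179 is red in most GTPase rows and blue in most type I rows.

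**Figure D5:**
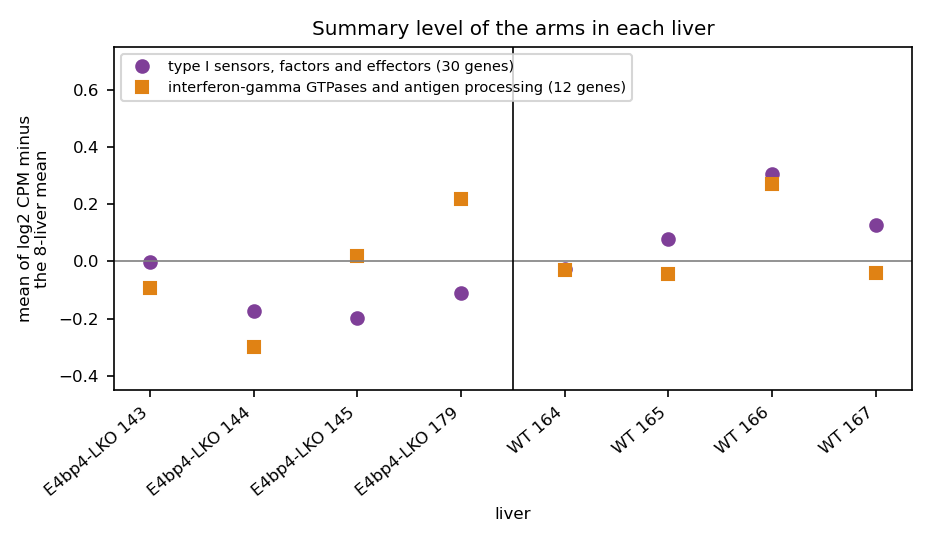
Points give, for each liver on the x axis (E4bp4-LKO left of the line, WT right), the mean over genes of log2 CPM minus the 8-liver mean, for the 30 type I genes (purple circles) and the 12 interferon-gamma and antigen-processing genes (orange squares). The arms lie close together in WT 166 (0.31 and 0.27) and furthest apart in E4bp4-LKO 179 (-0.11 and 0.22).

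Averaged over the 8 livers, Ifitm3 stood at 452 FPKM (fragment counts scaled by transcript length and library total), Bst2 at 155, Iigp1 at 94.0, Lgals3bp at 93.8, Ifi27 at 58.8 and Irf7 at 28.03. Of these, Lgals3bp alone was called. At the lower end, Oas2 stood at 1.54 FPKM, Oas3 at 1.39, Oas1g at 1.09 and Mx2 at 0.963. Among the called genes, the level per length was 77.0 ± 8.23 FPKM in E4bp4-LKO livers and 111 ± 8.56 FPKM in WT livers for Lgals3bp (SD, n = 4 each). It was 1.14 ± 0.201 FPKM in E4bp4-LKO livers and 1.94 ± 0.195 FPKM in WT livers for Oas2 (SD, n = 4 each). Ifitm3 was at 438 ± 43.4 FPKM in E4bp4-LKO livers and 467 ± 34.2 FPKM in WT livers (SD, n = 4 each). FPKM is scaled by the library total, so its group differences carry the shift between the scalings given above. Fractional counts occurred in at least 1 library for 26 members, and in 7 or 8 libraries for every GTPase, so the split of reads among these families is uncertain.

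Other genes of the pathway, in lists kept apart from the members, were read from the same fit. Of 68 other interferon-stimulated genes tested, 12 were lower (17.6%, against 6.48% of all genes) and 1 was higher (against 4.36%). The list's median log2 fold change was -0.20, with 48 estimates negative and 20 positive. DESeq2 called 14 lower and 6 higher, with 9.57% and 7.33% of all genes called in those directions. At an unadjusted p under 0.05, 21 were lower and 6 higher, against 15.2% and 13.1% of all genes. The smallest p was that of Ifi27l2b, a relative of Ifi27, at 34.4 ± 3.52 CPM in E4bp4-LKO livers and 61.5 ± 6.42 CPM in WT livers (log2 fold change -0.84, SE 0.10, edgeR, adjusted p = 0.00119; SD, n = 4 each). Next was Ifi207, a PYHIN protein, at 14.04 ± 1.79 CPM in E4bp4-LKO livers and 22.5 ± 2.50 CPM in WT livers (log2 fold change -0.68, SE 0.11, edgeR, adjusted p = 0.00598; SD, n = 4 each). Ifi30, a thiol reductase of lysosomes in antigen-presenting cells, and Slfn2, a schlafen protein, were lower by -0.59 (edgeR, adjusted p = 0.0060) and -0.76 (edgeR, adjusted p = 0.0131; lost without E4bp4-LKO 144, 0.0501). The gene that was higher in the edgeR fit was Gvin1, a very large inducible GTPase, named here after its value was seen. It had a log2 fold change of 0.57 (edgeR, adjusted p = 0.0239). Its call was lost without E4bp4-LKO 145 or 179 (edgeR, adjusted p up to 0.0635). The call of Gvin1 was also lost when WT 164 and WT 165 were both left out, with library totals and in the FPKM fits (largest adjusted p = 0.184, limma). The count of 12 became 5 when E4bp4-LKO 144 was left out, 6 when WT 165 was and 7 when E4bp4-LKO 145 was. It was 4 when WT 164 and WT 165 were both left out. Over all genes, lower calls in these fits numbered 271, 372, 422 and 205 in the same order, against 858 with all livers.

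Of 15 adaptors of nucleic acid sensing, 4 were lower (26.7%, against 6.48% of all genes) and 0 higher (against 4.36%). DESeq2 called 4 lower and 1 higher, as did edgeR without WT 167. Mavs averaged 128 ± 5.99 CPM in E4bp4-LKO livers and 104.5 ± 12.2 CPM in WT livers (SD, n = 4 each). Each E4bp4-LKO liver lay above every WT liver, as for 8.8% of all genes. The log2 fold change of Mavs, 0.29, did not pass (SE 0.09, edgeR, adjusted p = 0.0581). Tmem173, which encodes STING, averaged 4.41 ± 0.493 CPM in E4bp4-LKO livers and 7.78 ± 1.80 CPM in WT livers (log2 fold change -0.82, SE 0.17, edgeR, adjusted p = 0.0143; SD, n = 4 each). Tlr7, an endosomal RNA receptor, averaged 4.52 ± 0.688 CPM in E4bp4-LKO livers and 7.72 ± 1.47 CPM in WT livers (log2 fold change -0.77, SE 0.16, edgeR, adjusted p = 0.0169; SD, n = 4 each). Unc93b1, the chaperone that brings TLR7 to endosomes, and Ifi204, a DNA sensor, were lower by -0.31 (edgeR, adjusted p = 0.0381) and -0.48 (edgeR, adjusted p = 0.0390). Leaving out 1 liver changed the count of lower adaptors to 0 (E4bp4-LKO 144) or 1 (E4bp4-LKO 145 or WT 165). The count was 2 without E4bp4-LKO 179, WT 164 or WT 166, and 3 without E4bp4-LKO 143. It was 0 when WT 164 and WT 165 were both left out. Of 10 negative regulators, 4 were lower (40%, against 6.48% of all genes) and 0 higher. They were Irf2bp2, a corepressor of IRF2 (log2 fold change -0.66, edgeR, adjusted p = 0.00166), and Tnfaip3, a ubiquitin-editing enzyme (log2 fold change -0.58, edgeR, adjusted p = 0.0202). With them were Ptpn6, a phosphatase of blood cells (log2 fold change -0.29, edgeR, adjusted p = 0.0295), and Trim30a (log2 fold change -0.42, edgeR, adjusted p = 0.0498). Irf2bp2 passed in all 8 fits that leave out 1 liver. The count of lower regulators was 1 without E4bp4-LKO 144, E4bp4-LKO 179 or WT 165. That count was 2 without E4bp4-LKO 145, WT 164 or WT 166, and 3 without WT 167. It was 1 when WT 164 and WT 165 were both left out. Of 9 other STAT and IRF factors, 1 was lower (11.1%, against 6.48% of all genes) and 1 was higher (against 4.36%). The lower gene was Irf8, a factor of macrophages and dendritic cells. It averaged 13.4 ± 1.36 CPM in E4bp4-LKO livers and 21.4 ± 4.19 CPM in WT livers (SD, n = 4 each; log2 fold change -0.68, edgeR, adjusted p = 0.0143; 0.0533 without E4bp4-LKO 144), and it did not pass when WT 164 and WT 165 were both left out.

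Markers of the cell types that liver holds were read beside these results. Of all genes, edgeR called 6.48% lower and 4.36% higher, and DESeq2 called 9.57% lower and 7.33% higher. Of 9 Kupffer cell and macrophage markers, 3 (Cd68, C1qa and Cd5l; 33.3%) were lower and 0 higher in the edgeR fit, while DESeq2 called 3 lower and 1 higher. The list was mixed, with 7 negative and 2 positive estimates: Timd4 was at 9.66, 7.70, 4.41 and 6.78 CPM in E4bp4-LKO livers, against 1.10, 3.54, 4.28 and 3.99 CPM in WT livers, without overlap (log2 fold change 1.16, edgeR, adjusted p = 0.0809). Marco had a log2 fold change of 1.75 with overlapping groups (edgeR, adjusted p = 0.173). The summed level of the list ran from 499 to 720 CPM in E4bp4-LKO livers and from 677 to 826 CPM in WT livers. A mean of log2 CPM relative to the 8-liver mean of each gene weighs all markers alike. That mean was 0.30, 0.12, -0.39 and 0.10 in E4bp4-LKO 143, 144, 145 and 179. It was -0.37, 0.21, 0.10 and -0.08 in WT 164, 165, 166 and 167, and the groups overlapped. Of 6 stellate cell markers, 2 were lower in the edgeR fit (33.3%) and 4 in the DESeq2 fit. Their sums were 367 to 485 CPM in E4bp4-LKO livers and 541 to 928 CPM in WT livers. Of 5 cholangiocyte markers, 1 (Spp1, 20%) was lower in the edgeR fit, and DESeq2 called 3 lower. Their sums were 77.4 to 104 CPM in E4bp4-LKO livers and 190.5 to 470.0 CPM in WT livers. Of 6 monocyte and neutrophil markers tested, 1 (Ccr2, 16.7%) was lower in the edgeR fit, and DESeq2 called 1 lower. The sums were 13.3 to 22.01 CPM in E4bp4-LKO livers and 15.6 to 35.7 CPM in WT livers, and Ly6g was not listed. Of 6 hepatocyte markers, 1 was higher (16.7%) and 0 lower in the edgeR fit, and DESeq2 called 2 higher and 0 lower. Their sums were 73970 to 90920 CPM in E4bp4-LKO livers and 55640 to 75620 CPM in WT livers. No marker of T and NK cells (8 tested), plasmacytoid dendritic cells (5), B cells (4) or sinusoidal endothelial cells (7) passed in the edgeR fit. DESeq2 called 1 sinusoidal endothelial marker higher and none of the others. T and NK cell markers summed to 7.25 to 13.1 CPM in E4bp4-LKO livers and 6.89 to 10.2 CPM in WT livers, and Siglech, which marks plasmacytoid dendritic cells, stood at 0.231 to 1.18 CPM in E4bp4-LKO livers and 0.336 to 0.896 CPM in WT livers. WT 166, the highest WT liver in most members, was not the highest WT liver in the macrophage sum (765 CPM, against 826 in WT 164). By the macrophage mean of log2 CPM, WT 164 was the lowest WT liver (-0.37) and WT 165 the highest (0.21), with WT 166 at 0.10. When WT 164 and WT 165 were both left out, 1 macrophage marker and 1 cholangiocyte marker were lower, 0 stellate cell and 0 monocyte and neutrophil markers were, and 0 hepatocyte markers were higher. In that fit 1.53% of all genes were lower and 1.36% higher. The median log2 fold change was then -0.28 for cholangiocyte markers, against -1.29 with all livers, and -0.27 for stellate cell markers, against -0.48. The part of cell composition in the lower level of the called genes was not tested.

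The 6 called genes were set against their promoters last. The table held 4 of them (Oasl2, Lgals3bp, Ifi44 and Ifit2), and 0 of these 4 had an ISRE core by the letters searched, while 18 of the other 28 members in the table did. Ifi44 and Lgals3bp hold the repeat unit of the core at other spacings, so the count of 0 of 4 depends on the spacing searched. The windows of Oasl2 and Ifi44 are shown because Oasl2 had the smallest p of the set and Ifi44 holds such repeats. They are the 100 bases before the annotated start, with every GAAA or TTTC in capitals (Oasl2, chr5:114896834-114896933, plus strand; Ifi44, chr3:151749911-151750010, minus strand, GRCm38.p6).
Oasl2: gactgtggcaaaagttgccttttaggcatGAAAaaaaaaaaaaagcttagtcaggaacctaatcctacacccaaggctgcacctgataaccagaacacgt
Ifi44: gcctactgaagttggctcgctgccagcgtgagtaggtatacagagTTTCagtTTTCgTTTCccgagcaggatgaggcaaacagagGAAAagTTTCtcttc
The Oasl2 stretch holds 1 such unit and the Ifi44 stretch holds 5, none of which stand in 1 direction at the spacing of the ISRE core. RefSeq gives 1 or few starts per gene, and a start used in liver may lie elsewhere, which these data do not show.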

How the data were processed

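RNA sequencing of whole liver from 4 E4bp4-LKO and 4 WT mice was deposited as 1 table per library. Per the labels' protocols, mRNA was enriched by oligo-dT or by removal of ribosomal RNA and copied with random primers; the submitters' processing notes name HISAT2. Its version, the counting program, the strand and the genome build are not stated in any label or header read. The authors deposited expected counts per gene, not normalized, of which 25.9% to 27.3% per library were fractional, and FPKM normalized for transcript length and library total. The 26 entries that lacked a symbol were joined to their gene through the accession, and a gene missing from a file was read as 0.

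Expected counts were rounded and fitted in R 4.3.3 with edgeR 4.0.16 (filterByExpr, minimum count 10 and minimum total 15; TMM; robust quasi-likelihood test, two-sided; Benjamini-Hochberg over 13244 genes; threshold 0.05). CPM are TMM-scaled, a positive log2 fold change is higher in E4bp4-LKO, and SE is the estimate over the root of F. Floors are 3 counts of the library total. DESeq2 1.42.0 and limma 3.58.1 served as alternatives, as did other scalings, filters and left-out livers. The fits were tested on simulated data. Mouse numbers name separate mice, so p-values measure the spread between mice; no 2 libraries agreed within sampling noise. The members and gene lists were chosen with earlier results of these data known. Values in every liver are given for called members and, in role groups with fewer than 2 called, for the 2 with the smallest p; other members are given by fold change or range, and of each pathway list up to 4 called genes by smallest p are named, with Ifng and Ifnb1 always; some genes that this rule names are not reported here. Promoters came from the RefSeq table of GRCm38.p6, which is not known to be the authors' build, and no other coordinates were used.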

Additional observations from a re-analysis of the deposited data

Results flagged for a closer look

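In 6 of the 84 groups of 4 livers looked at (42 members, 2 genotypes), 1 liver stood apart from the other 3 by more than Dixon's 95% limit for the share of the group's range; chance flags about 1 in 20 groups. E4bp4-LKO 143 was at 19.0 CPM for Ifit3, against 16.6, 16.8 and 17.0 CPM in the other E4bp4-LKO livers. E4bp4-LKO 179 was at 14.1 CPM for Oasl1, against 19.8, 19.9 and 20.4 CPM in the other E4bp4-LKO livers, and at 379 CPM for Iigp1, against 269, 285 and 286 CPM in them. WT 166 was at 19.9 CPM for Rsad2 (11.6, 11.6 and 12.3 CPM in the other WT livers), at 67.3 CPM for Irgm2 (53.1, 54.1 and 55.2 CPM in them) and at 27.1 CPM for Psmb9 (18.7, 19.4 and 19.8 CPM in them). The livers that stood apart were thus E4bp4-LKO 143, E4bp4-LKO 179 and WT 166, and none of the genes was among the 6 called.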

How the results depend on the processing

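No paired analysis was possible because the mouse numbers of the 2 genotypes do not overlap. No member was called higher in any of the 17 alternatives run. Members called lower numbered 6 in the reported fit; 6 to 8 with DESeq2, DESeq2 size factors, no low-count filter, a 5 CPM filter or log2(FPKM + 1) without a filter; 13 with library totals (12 type I); 15 with log2(FPKM + 1) or log2(FPKM + 0.1) (14 type I); 4 without WT 164 and WT 165; and 1 to 7 over the 8 fits without 1 liver (type I, 1 to 7; interferon-gamma arm, 0 to 1). Of all genes, 858 of 13244 were lower in the reported fit and 1660 with library totals. The filtered FPKM fits called 1423 and 1449 of 10798 lower, and tested 12 of the 14 antiviral effectors. Without WT 164 and WT 165 the all-gene count was 205, and over the 8 fits without 1 liver it was 271 to 932. The members' median of -0.15 (type I -0.24) was -0.31 (-0.38) with library totals and -0.32 (-0.37) with log2(FPKM + 0.1). The median of all genes was -0.15 and -0.13 in those 2 fits. Single members changed sign. With library totals Stat2 was -0.0799, Ifitm3 -0.0906, Mx2 -0.0605, Parp14 -0.0269, Irgm1 -0.0917, Irgm2 -0.12, Gbp7 -0.0860 and Tap1 -0.0695. With log2(FPKM + 1), filtered or not, Stat2 was -0.0737, Ifitm3 -0.0937, Parp14 -0.0189, Irgm1 -0.0855, Irgm2 -0.12, Gbp7 -0.0777 and Tap1 -0.0719, and unfiltered Mx2 -0.0408. With log2(FPKM + 0.1) Stat2 was -0.0791, Ifitm3 -0.0939, Parp14 -0.0210, Irgm1 -0.0887, Irgm2 -0.13, Gbp7 -0.0949 and Tap1 -0.0766. Without WT 164 and WT 165 Ifitm3 was -0.10, Mx2 -0.0082, Irgm2 -0.0316, Gbp7 -0.11 and Tap1 -0.0292. Over the fits without 1 liver, estimates crossed 0 for Irf9 (-0.12 to 0.0518), Ifitm3 (-0.0058 to 0.14), Mx2 (-0.19 to 0.22), Oasl1 (-0.15 to 0.0336), Bst2 (-0.0741 to 0.0444), Ifi27 (-0.15 to 0.12), Igtp (-0.39 to 0.0059), Irgm2 (-0.0459 to 0.13), Gbp6 (-0.37 to 0.0271), Gbp7 (-0.0293 to 0.16), Tap1 (-0.0049 to 0.15), Psmb8 (-0.0685 to 0.0381) and Psmb9 (-0.14 to 0.0718). Where not named above, the cause was not tested. With 4 livers a group, changes under the SE quoted are not resolved, and changes well above the SE also missed the threshold. Examples are Oas1g (log2 fold change -0.79, SE 0.23) and Ddx58 (-0.21, SE 0.06).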
